A study of Homo sapiens with 30 samples.

Results

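The transcripts of 9 genes for BET proteins and for the P-TEFb machinery were followed through 30 RNA-seq samples in 10 conditions of prostate cancer cells, 3 samples per condition. The genes were chosen by name: the BET proteins BRD2 and BRD3, the P-TEFb kinase CDK9 with its cyclins CCNT1 and CCNT2, and HEXIM1, HEXIM2, LARP7 and MEPCE of the 7SK particle. They are 9 of 23710 gene symbols in the read counts and 9 of 23616 symbols in the FPKM tables. FPKM express the fragments of a transcript relative to its length and to all fragments mapped, and were summed here to genes from 43497 transcripts.

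BET proteins bind acetylated histones through paired bromodomains and bring transcription machinery to chromatin. P-TEFb, the pair of CDK9 with cyclin T1 or T2, phosphorylates RNA polymerase II and the factors that hold it near promoters, and so lets it enter elongation. Part of P-TEFb is held inactive in a particle built on the small nuclear RNA 7SK: HEXIM1 or HEXIM2 blocks the kinase, LARP7 holds the RNA, and MEPCE caps it. JQ-1, a small molecule that occupies BET bromodomains, is known to release P-TEFb from this particle in many cells, and HEXIM1 mRNA is widely used as a marker of exposure to BET inhibitors. In prostate cancer, BET proteins are studied as cofactors of androgen-driven transcription.

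MR49F is an enzalutamide-resistant line derived from LNCaP prostate cancer cells, and V16D is the castration-resistant line it is compared with. Each is a single line, and MR49F, maintained in enzalutamide, was grown without the drug before plating and treatment. In full serum, V16D and MR49F received vehicle (DMSO) or 10 µM enzalutamide, an antiandrogen. MR49F was also grown for 72 h in charcoal-stripped serum, which holds little steroid, before treatment. In that serum it received vehicle (DMSO with ethanol), 1 nM DHT (the androgen dihydrotestosterone), 10 µM enzalutamide, 500 nM JQ-1, DHT with JQ-1, or enzalutamide with JQ-1. Per the labels, every treatment lasted 24 h. For the JQ-1 expression data, a figure legend of the paper refers instead to the treatment of a viability assay, which lasted longer. The sources used here do not resolve this difference. JQ-1 was given in stripped serum only, and V16D was studied in full serum only. Wells were combined into each replicate. The methods call the replicates biological, but whether they came from separate cultures is not stated, so the p-values measure the spread between these samples, which may be technical in part.

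All 7 luminal markers looked for were present. The androgen-induced KLK3 ranged from 6.45 to 1327 FPKM in stripped serum. Of the markers of other cells, the basal genes KRT5 and TP63 reached at most 0.0264 FPKM, and the basal KRT14 reached 0.336 FPKM. COL1A1 reached 1.77, VIM 1.31 and PECAM1 0.768 FPKM, and COL3A1 and PTPRC at most 0.122 FPKM. Between 13170504 and 21154962 reads were counted on genes per sample in full serum (73.0 to 77.8% of the reads with an assignment listed), but between 982130 and 1813262 in stripped serum (5.13 to 7.66%). Gene counts of the strand-specific libraries differed in kind between sera. For 6632 genes with no exon on the opposite strand, the count per FPKM in MR49F vehicle was 0.834 times as high in stripped as in full serum (median, quartiles 0.632 and 1.11). For 82 genes sharing at least 200 bases with an opposite-strand gene of at least 10 times their FPKM it was 3.19 times as high (quartiles 1.13 and 12.9). For HEXIM1, which shares 520 exonic bases with the antisense gene HEXIM2-AS1, it was 5.05 times as high, and for CCNT1, which shares none, 0.468 times. Among the rest it was 2.63 for HEXIM2 (1026 bases shared with an unnamed gene and 567 with HEXIM2-AS1) and 2.06 for BRD3 (1283 bases with BRD3OS). It was 1.86 for BRD2 (577 bases with an unnamed gene and 55 with HLA-DMA) and 1.67 for LARP7 (1318 bases with MIR302CHG). The lowest were 0.945 for CDK9 (none shared), 0.787 for MEPCE (203 bases with ZCWPW1) and 0.756 for CCNT2 (150 bases with CCNT2-AS1). How strand was set in the counting is not given in the sources used here. Counts on genes with an opposite-strand neighbour in stripped serum may therefore hold reads of that neighbour, so FPKM are given first there, and counts are used first in full serum. Genes without such a neighbour also had few counts: CDK9 had 58 to 128 per sample in stripped and 728 to 1224 in full serum. Which reads the stripped-serum counts of any gene hold was not tested, so these counts are not an independent check of FPKM. Whether FPKM estimation kept the strands apart is not given either.

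**Figure D1:**
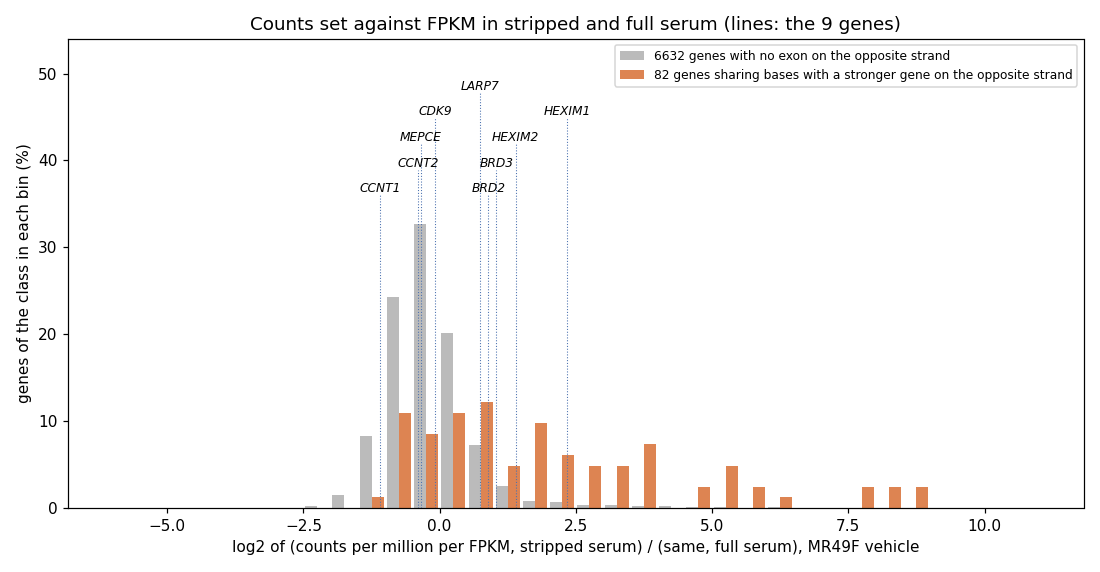
Ratio of counts per FPKM in stripped serum to that in full serum for MR49F vehicle (x axis, log2 scale), as a histogram. Bars give the % of genes of a class in each bin (y axis). The classes are 6632 genes with no exon on the opposite strand and 82 genes sharing bases with a stronger opposite-strand gene. Vertical lines mark the 9 genes. HEXIM1 lies farthest to the right at 5.05 and CCNT1 farthest to the left at 0.468.

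By the GENCODE annotation on GRCh37, HEXIM1 (chromosome 17, 43225842 to 43229466, plus strand) and HEXIM2 (17, 43238067 to 43247407, plus strand) are neighbours. BRD2 lies in the major histocompatibility complex (6, 32936371 to 32949282, plus strand), and the deposited FPKM list it in 32 transcript entries, with up to 7 copies of a transcript on alternative haplotypes. Reads on near-identical copies can be shared out or left uncounted, and BRD2 counts were only 38 to 77 per sample in full serum and 2 to 23 in stripped serum. Its counts are thus no measure of its level, and its FPKM, summed over the copies, rest on how Cufflinks shared the reads. The other genes lie at chromosome 9, 136895427 to 136933657 (BRD3, minus strand), 9, 130547958 to 130553071 (CDK9, plus), 12, 49082241 to 49110781 (CCNT1, minus), 2, 135675805 to 135716912 (CCNT2, plus), 4, 113558233 to 113578852 (LARP7, plus) and 7, 100025945 to 100031749 (MEPCE, plus).

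The start regions of HEXIM1 and HEXIM2 are shown because these paralogues, which share a role, moved in opposite directions with JQ-1. The sequences are the 250 bases before each start in RefSeq on GRCh38.p14, plus strand, written 5′ to 3′, with motif matches in capitals. The first is chr17:45148225-45148474, and the HEXIM2 windows, before its alternative starts, are chr17:45159924-45160173 and chr17:45161625-45161874.
HEXIM1: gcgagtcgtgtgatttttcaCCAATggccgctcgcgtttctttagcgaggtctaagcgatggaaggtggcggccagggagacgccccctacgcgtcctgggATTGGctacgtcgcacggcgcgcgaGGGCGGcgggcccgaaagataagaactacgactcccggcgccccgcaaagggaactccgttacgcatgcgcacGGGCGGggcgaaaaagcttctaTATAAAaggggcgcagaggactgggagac
HEXIM2, upstream start: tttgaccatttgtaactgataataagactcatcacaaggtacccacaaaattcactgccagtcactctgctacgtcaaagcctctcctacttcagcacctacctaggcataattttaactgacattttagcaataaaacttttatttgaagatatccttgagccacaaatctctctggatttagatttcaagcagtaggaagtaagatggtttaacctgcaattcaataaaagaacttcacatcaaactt
HEXIM2, downstream start: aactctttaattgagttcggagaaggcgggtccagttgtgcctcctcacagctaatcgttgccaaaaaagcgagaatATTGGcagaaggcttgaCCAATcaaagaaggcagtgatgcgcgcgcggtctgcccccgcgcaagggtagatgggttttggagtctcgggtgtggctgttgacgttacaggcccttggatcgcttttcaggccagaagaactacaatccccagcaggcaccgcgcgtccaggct
The HEXIM1 window holds the TATA box letters TATAAA, which begin 29 bases before the start, a CCAAT box on each strand (CCAAT or ATTGG, 230 and 149 bases before the start) and GC boxes (GGGCGG, 124 and 51 bases before it). The upstream HEXIM2 window holds no match, and the downstream one holds a CCAAT box on each strand, 173 and 156 bases before the start. On either strand, TATAAA stands in 10.8% of 34943 such windows of the genome, CCAAT in 32.0% and GGGCGG in 42.5%. Also searched were the E-box CACGTG (6.32% of windows) and the cyclic AMP response element TGACGTCA (1.63%), and neither stands in these HEXIM1 and HEXIM2 windows. None of these motifs contains another. Among 17 windows of the 9 genes, TATAAA stands only in that of HEXIM1, GGGCGG in 12 and CCAAT in 6.

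In stripped serum with vehicle, BRD2 had the highest level of the 9 at 86.1 ± 5.69 FPKM (mean ± SD, n = 3, as for all means here). MEPCE followed at 23.9 ± 1.59, CDK9 at 21.4 ± 0.338, BRD3 at 19.8 ± 0.145, LARP7 at 18.9 ± 1.05 and HEXIM1 at 13.5 ± 1.00 FPKM. CCNT1 at 9.69 ± 0.187, CCNT2 at 7.55 ± 0.383 and HEXIM2 at 6.86 ± 1.07 FPKM were lowest. The kinase mRNA was thus above either cyclin T mRNA on this per-length scale. At baseline, the mRNA of the inhibitor HEXIM1 was 0.629 ± 0.043 times that of CDK9.

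**Figure D2:**
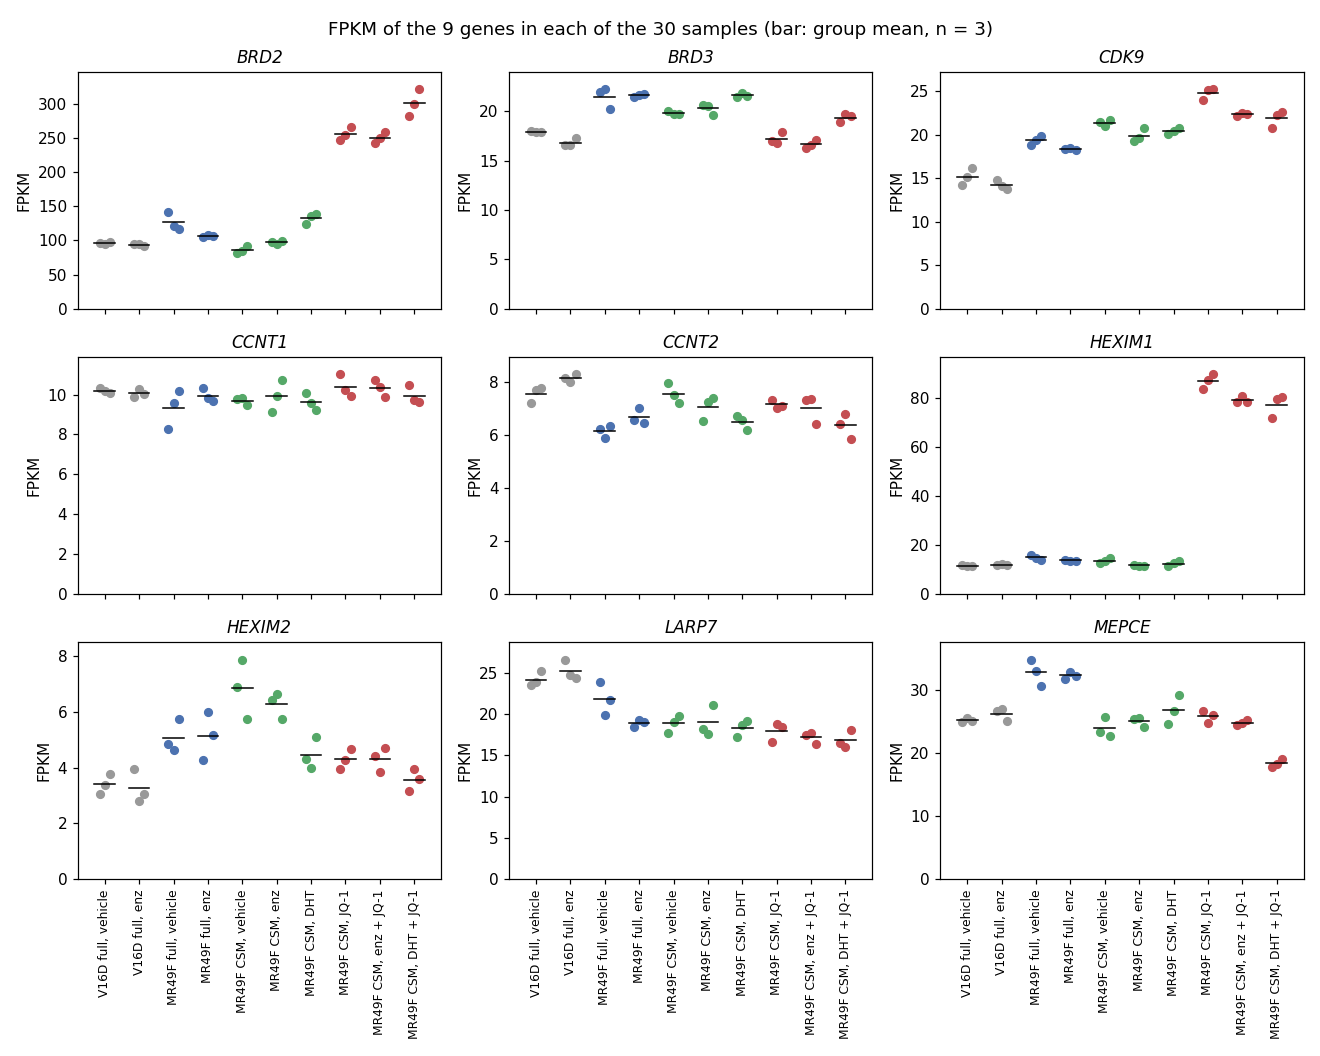
FPKM (y axis, linear from 0) of each of the 9 genes in every sample of the 10 conditions (x axis), with points for samples and bars for the mean of 3. HEXIM1 and BRD2 stand highest in the 3 conditions with JQ-1, at means of 77.2 to 86.9 and 251 to 301 FPKM.

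JQ-1 was first compared with vehicle in stripped serum. HEXIM1 and BRD2 mRNA rose strongly, CDK9 rose slightly, and HEXIM2 and BRD3 fell. In vehicle, HEXIM1 stood at 12.6, 13.3 and 14.6 FPKM in the 3 samples, and with JQ-1 at 83.8, 87.1 and 89.6 FPKM. Every JQ-1 sample lay far above every vehicle sample, with means of 13.5 ± 1.00 and 86.9 ± 2.89 FPKM, a 6.44-fold difference. On the log2(FPKM + 1) scale used for all FPKM tests, the change of HEXIM1 was 2.60 ± 0.053, adjusted p = 6.38e-09 (± SE, limma with Benjamini-Hochberg adjustment over all genes tested). It was the 10th largest rise among 12203 genes. Samples are bulk RNA, in which fewer cells of a type and less RNA per cell cannot be told apart.

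BRD2, a target of JQ-1 itself, stood at 81.0, 85.1 and 92.2 FPKM in vehicle and at 247, 254 and 266 FPKM with JQ-1. The groups did not overlap, the means differed 2.97-fold, and the log2 change was 1.56 ± 0.052, adjusted p = 6.77e-08 by limma, the 57th largest rise. Summed over copies, a minor coding transcript of BRD2 was lower with JQ-1 (5.18 FPKM in vehicle and 3.91 FPKM with JQ-1), the noncoding one went from 13.9 to 20.1 FPKM, and the other coding ones were higher, the leading one at 50.6 and 162 FPKM. The makeup of its transcripts also differed: the leading coding transcript took 58.8 ± 0.59% of BRD2 FPKM in vehicle and 63.1 ± 0.62% with JQ-1, a second coding one 6.42 ± 2.01% and 15.7 ± 0.80%, the coding one that was lower 6.01 ± 1.30% and 1.53 ± 0.27%, and the noncoding one 16.1 ± 0.97% and 7.84 ± 0.24%. These shares are Cufflinks estimates and were not tested.

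BRD3, the other BET gene, went the other way. Its FPKM were 20.005, 19.7 and 19.8 in vehicle and 17.0, 16.8 and 17.9 with JQ-1, without overlap, and it fell by 0.19 on the log2 scale (SE 0.036, adjusted p = 0.00116, limma). The size of this change, 0.868 times vehicle, was small beside the rise of BRD2.

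Within P-TEFb itself, changes were small. CDK9 was at 21.5, 21.0 and 21.7 FPKM in vehicle and 24.0, 25.2 and 25.2 FPKM with JQ-1, again without overlap, and its log2 change was 0.20 ± 0.035, adjusted p = 0.000756 (limma). The cyclins did not pass the test: CCNT1 changed by 0.089 (95% interval -0.001 to 0.18) and CCNT2 by -0.070 (-0.16 to 0.020). The CCNT1 samples did not overlap between groups, and those of CCNT2 did.

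The members of the 7SK particle parted. HEXIM2, the paralogue that can stand in for HEXIM1, was at 6.92, 7.89 and 5.76 FPKM in vehicle and 3.94, 4.29 and 4.65 FPKM with JQ-1, and its log2 change was -0.56 ± 0.098, adjusted p = 0.000801 (limma). All HEXIM2 values with JQ-1 lay below those of vehicle. LARP7, at -0.070 (95% interval -0.18 to 0.040), and MEPCE, at 0.11 (0.009 to 0.21), did not pass. HEXIM1 mRNA went from 0.629 ± 0.043 to 3.50 ± 0.044 times that of CDK9, from 0.783 ± 0.082 to 4.97 ± 0.36 times that of both cyclins summed, and from 2.01 ± 0.45 to 20.3 ± 1.02 times that of HEXIM2.

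In all, 5 of the 9 genes passed the test with JQ-1 alone, against 75.1% of all genes tested, so passing the test did not set the 9 genes apart, and only the size of the HEXIM1 and BRD2 rises stood near the top of the ranking. The share of all genes whose groups did not overlap was not computed. Absence of overlap is therefore a description only, here and in the other comparisons. In the counts 3 of 9 passed (46.6% of all genes, edgeR): BRD2 at 1.27 ± 0.39 (from 2 to 23 reads per sample, no measure of its level), HEXIM1 at 0.91 ± 0.084 and MEPCE at 0.41 ± 0.13. The HEXIM1 rise in counts was thus far smaller than in FPKM, from a vehicle level of 434 CPM in stripped serum against 94.6 CPM in full serum. The BRD2 call in counts was lost without the first JQ-1 replicate (1.06), CCNT1 was called without the second (0.44) and HEXIM2 without the third vehicle replicate (-0.49), and in FPKM MEPCE was called without the second vehicle replicate (0.16). Part of the HEXIM1 counts may belong to the opposite strand, and this was not tested.

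JQ-1 added to enzalutamide gave the same directions for the genes called. HEXIM1 was at 11.9, 11.3 and 11.4 FPKM with enzalutamide and 78.3, 80.8 and 78.4 FPKM with both, 6.86-fold, with a log2 change of 2.68 ± 0.038, adjusted p = 4.12e-10 (limma), ranking 6th of 12148 genes. BRD2 was at 97.7, 95.4 and 99.2 FPKM and 243, 250.5 and 259 FPKM, 2.57-fold, with 1.35 ± 0.038, adjusted p = 1.55e-08 (limma). Neither gene's groups overlapped. BRD3 (from 20.3 ± 0.589 to 16.7 ± 0.408 FPKM, log2 change -0.27 ± 0.042, adjusted p = 0.000334) and HEXIM2 (from 6.28 ± 0.467 to 4.31 ± 0.437 FPKM, -0.46 ± 0.075, adjusted p = 0.000474) were lower, and CDK9 was higher (0.16 ± 0.041, adjusted p = 0.00596). These were 5 of 9 against 75.7% of all genes in FPKM. In counts 2 of 9 passed (45.1% of all genes, edgeR), BRD2 at 1.40 ± 0.39 (from 5 to 21 reads per sample) and HEXIM1 at 1.34 ± 0.092. The BRD2 call in counts was lost without the third replicate with both drugs (1.05), and BRD3 was called in counts without the third enzalutamide replicate (-0.21). In FPKM, LARP7 was called without the second enzalutamide replicate (-0.18).

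JQ-1 added to DHT raised the same pair, and here MEPCE fell. HEXIM1 was at 11.3, 12.4 and 13.3 FPKM with DHT and 71.9, 79.4 and 80.2 FPKM with DHT and JQ-1, 6.25-fold, with a log2 change of 2.55 ± 0.064, adjusted p = 1.95e-08 (limma), ranking 6th of 11856 genes. BRD2 was at 124, 136 and 139 FPKM with DHT and 282, 299.7 and 321 FPKM with both, 2.26-fold, with 1.17 ± 0.061, adjusted p = 5.58e-07 (limma). Both genes again had no overlap between groups. MEPCE, the 7SK capping enzyme, was at 24.6, 26.7 and 29.2 FPKM with DHT and 17.7, 18.3 and 19.1 FPKM with both, 0.684 times as high, with -0.52 ± 0.062, adjusted p = 7.58e-05 (limma). The MEPCE level with DHT and JQ-1 was the lowest of all 10 conditions. BRD3 at -0.15 ± 0.035, adjusted p = 0.00357 and HEXIM2 at -0.26 ± 0.091, adjusted p = 0.0290 also passed, while CDK9 at 0.095 ± 0.042 did not. The 5 of 9 genes called stood against 78.8% of all genes. In counts 4 of 9 passed (54.7% of all genes, edgeR): HEXIM1 at 1.42 ± 0.087, CDK9 at 0.31 ± 0.13, BRD3 at -0.21 ± 0.085 and MEPCE at -0.56 ± 0.13. BRD2, with very few reads, did not pass in these counts. Some calls rested on single samples or on the processing. In FPKM the BRD3 call was lost with quantile normalization (-0.050), and the HEXIM2 call was lost with quantile normalization, without a filter on low values, and without DHT and JQ-1 replicate 1 (-0.19) or 3 (-0.27) or DHT replicate 3 (-0.18). CDK9 was called without DHT and JQ-1 replicate 1 (0.13), and LARP7 without DHT replicate 1 or DHT and JQ-1 replicate 3 (-0.16 in each case). Both were also called with the replicate number as a block in the fit. In counts the calls of BRD3 and CDK9 were lost for 5 and 4 of the 6 samples left out in turn (-0.14 to -0.23 for BRD3, 0.26 to 0.34 for CDK9), and CCNT2 was called without DHT replicate 3 (0.42).

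**Figure D3:**
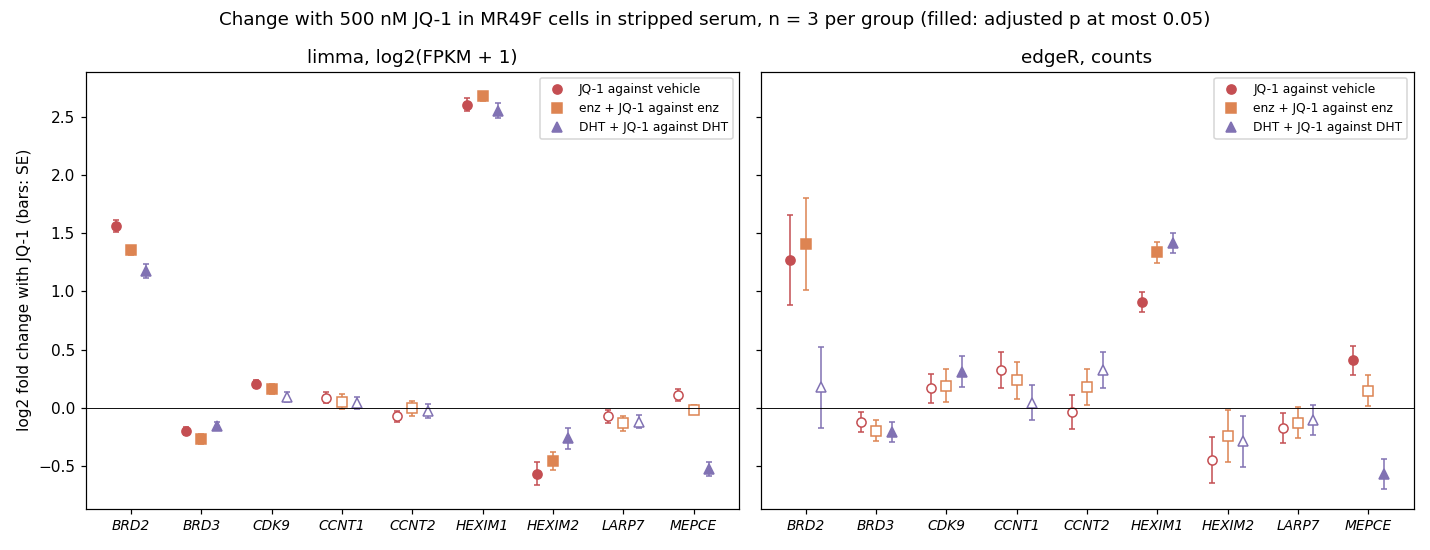
Log2 fold change with JQ-1 (y axis, with bars of 1 SE) for the 9 genes (x axis) in 3 backgrounds, vehicle, enzalutamide and DHT. Changes are from FPKM with limma (left) and from counts with edgeR (right), filled where adjusted p was at most 0.05. In FPKM, HEXIM1 lies at 2.55 to 2.68 and BRD2 at 1.17 to 1.56, and the HEXIM1 change is smaller in counts.

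Whether a ligand altered the JQ-1 response was tested by interaction terms. With DHT, 2 of 9 genes differed in FPKM (48% of all genes): MEPCE, whose response was lower by 0.63 on the log2 scale (interaction -0.63 ± 0.086, adjusted p = 9.58e-05, limma), and BRD2 (-0.39 ± 0.086, adjusted p = 0.00291). MEPCE thus changed by 0.11 without DHT, which did not pass, and by -0.52 with it. For HEXIM1 the interaction was -0.052 (95% interval -0.23 to 0.12), so no difference in its rise was detected in FPKM. In counts 2 of 9 passed (12.3% of all genes, edgeR), MEPCE at -0.97 ± 0.18, adjusted p = 0.000104 and HEXIM1 at 0.51 ± 0.13, adjusted p = 0.00621, and the HEXIM1 interaction has the other sign in FPKM. MEPCE was the gene called in both units. HEXIM2 was called in FPKM without vehicle replicate 3 (0.41).

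With enzalutamide, 1 of 9 genes had an interaction in FPKM (19.2% of all genes): BRD2 at -0.21 ± 0.066, adjusted p = 0.0464 (limma), a call near the threshold that was lost for 9 of the 12 samples left out in turn (-0.16 to -0.22). The HEXIM1 interaction was 0.073 (95% interval -0.055 to 0.20). In counts 0 of 9 passed by edgeR (0.895% of all genes), 1 had an unadjusted p under 0.05, and DESeq2 called 0. HEXIM1 was called in counts without vehicle replicate 1 (0.57) or enzalutamide replicate 3 (0.54).

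The ligands were also compared alone with vehicle in stripped serum. These comparisons use the same 3 vehicle samples as JQ-1 alone, so the changes of the comparisons are not independent. DHT raised BRD2 and lowered HEXIM2. BRD2 went from 81.0, 85.1 and 92.2 FPKM in vehicle to 124, 136 and 139 FPKM with DHT, 1.54-fold, with 0.62 ± 0.060, adjusted p = 2.27e-05 (limma). The DHT samples were all above the vehicle samples, and below all samples with JQ-1. HEXIM2 was at 4.31, 3.99 and 5.11 FPKM with DHT, all below the vehicle values of 6.92, 7.89 and 5.76 FPKM, with -0.52 ± 0.11, adjusted p = 0.00227 (limma). CCNT2 was lower, from 7.55 ± 0.383 to 6.48 ± 0.285 FPKM (-0.19 ± 0.052, adjusted p = 0.00916), and BRD3 slightly higher, from 19.8 ± 0.145 to 21.7 ± 0.209 FPKM (0.12 ± 0.035, adjusted p = 0.0126). HEXIM1 did not pass at -0.12 (95% interval -0.25 to 0.016), but it was called with the replicate number as a block in the fit. The 4 of 9 genes called in the main fit stood against 72.1% of all genes. In counts 3 of the 8 genes tested passed (37.5% of all genes, edgeR): HEXIM1 at -0.65 ± 0.12, CCNT2 at -0.51 ± 0.17 and MEPCE at 0.54 ± 0.14, while BRD2 fell below the filter on low counts. In FPKM the calls of BRD3 and CCNT2 were lost with quantile normalization and that of BRD3 also without DHT replicate 2 (0.11), and MEPCE was called without DHT replicate 1 (0.22) or vehicle replicate 2 (0.21). In counts the CCNT2 call was lost without vehicle replicate 1 (-0.31) or DHT replicate 1 or 2 (-0.45 and -0.47), and BRD3 was called without vehicle replicate 3 (0.33).

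Enzalutamide in stripped serum left most of the 9 without a call. HEXIM1 was at 11.9, 11.3 and 11.4 FPKM, all below the vehicle values, with -0.20 ± 0.056, adjusted p = 0.0184 (limma). BRD2 was at 97.7, 95.4 and 99.2 FPKM, all above vehicle, with 0.18 ± 0.053, adjusted p = 0.0252 (limma). Both changes were small, 0.857 and 1.13 times vehicle, and they are 2 of 9 against 38.7% of all genes. The HEXIM1 call was lost without enzalutamide replicate 2 (-0.19) or vehicle replicate 3 (-0.15), and the BRD2 call for 4 of the 6 samples left out, vehicle 1 and 2 and enzalutamide 1 and 3 (0.14 to 0.18). CDK9 was called without enzalutamide replicate 3 (-0.13). In counts HEXIM1 alone of 8 genes tested passed, at -0.45 ± 0.13 (7.26% of all genes, edgeR), a call lost without vehicle 2 or 3 or enzalutamide 1 or 2 (-0.28 to -0.49).

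**Figure D4:**
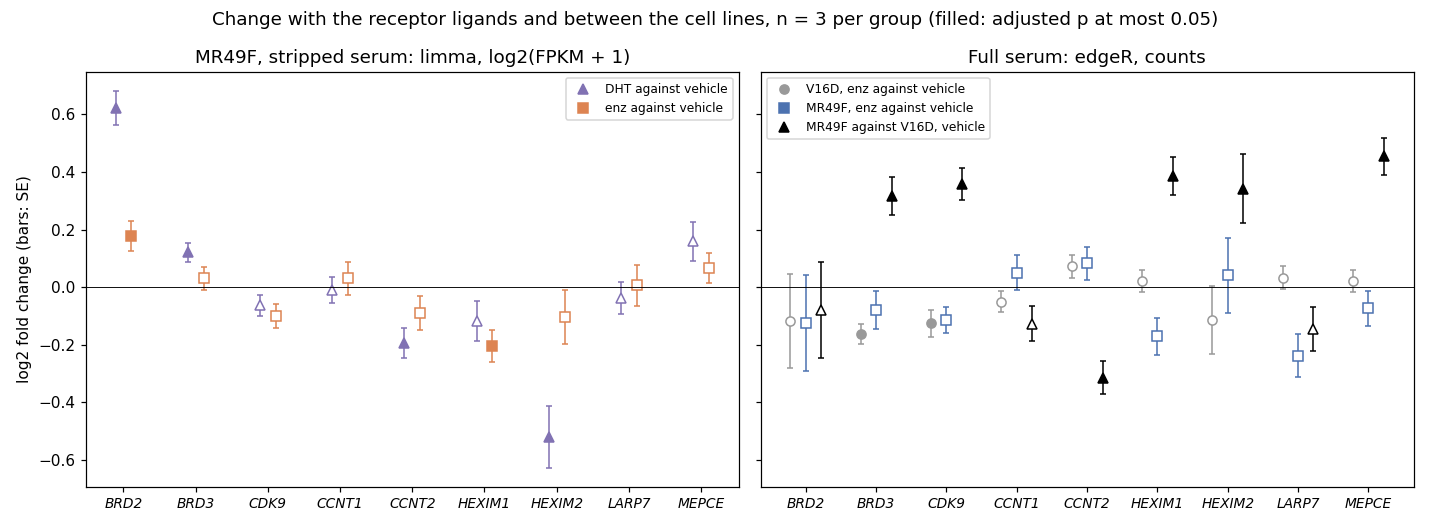
Log2 fold change (y axis, with bars of 1 SE) of the 9 genes (x axis). Left: DHT or enzalutamide in stripped serum, from FPKM. Right: enzalutamide in each line and the difference between the lines in full serum, from counts. Symbols are filled where adjusted p was at most 0.05. BRD2 with DHT lies at 0.62 and HEXIM2 at -0.52, and in full serum MEPCE shows the largest line difference at 0.45.

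In full serum, enzalutamide moved the 9 genes little. In V16D, HEXIM1 was at 11.6, 11.3 and 11.2 FPKM with vehicle and 11.6, 12.04 and 11.7 FPKM with enzalutamide. In MR49F it was at 15.9, 14.7 and 14.0 and 13.9, 13.3 and 13.5 FPKM. The HEXIM1 values lay slightly higher with the drug in V16D and slightly lower in MR49F, and neither change passed. In the counts of V16D, BRD3 at -0.16 ± 0.034, adjusted p = 1.34e-05 and CDK9 at -0.13 ± 0.047, adjusted p = 0.0247 passed (edgeR), 2 of 9 against 37.5% of all genes. The CDK9 call was lost with DESeq2, and without enzalutamide replicate 2 (-0.12) or 3 (-0.11) or vehicle replicate 3 (-0.086). In FPKM of V16D, 0 of 9 passed by limma (30.4% of all genes) and 2 had an unadjusted p under 0.05. In MR49F, 0 of 9 passed by edgeR (8.48% of all genes), 3 had an unadjusted p under 0.05 and DESeq2 called 0. In FPKM of MR49F it was 0 of 9 by limma (4.6% of all genes), with 2 at an unadjusted p under 0.05. The values of those 3 genes in counts were -0.24 ± 0.075 for LARP7, -0.17 ± 0.064 for HEXIM1 and -0.11 ± 0.046 for CDK9.

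The MR49F result leans on its vehicle samples. The first vehicle replicate stood apart from the other 2 in counts (chi-square per degree of freedom 9.86 and 11.6, against 1.13 to 2.82 for all other pairs of replicates), and without it LARP7 passed at -0.14 (edgeR). LARP7 also passed at -0.31 without the second vehicle replicate, and HEXIM1 at -0.23 without the third. The difference of the enzalutamide response between the lines was called for 0 of 9 genes by edgeR (6.95% of all genes) and by DESeq2, with 2 genes at an unadjusted p under 0.05, HEXIM1 at -0.20 ± 0.076 and LARP7 at -0.28 ± 0.089. LARP7 was called without the second MR49F vehicle replicate (-0.35), and LARP7 (-0.30) and HEXIM1 (-0.26) without the third. In FPKM it was 0 of 9 by limma (6.04% of all genes), with 3 at an unadjusted p under 0.05.

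Between the lines, several of the 9 differed with vehicle in full serum. HEXIM1 was higher in MR49F, at 15.9, 14.7 and 14.0 FPKM against 11.6, 11.3 and 11.2 FPKM in V16D, and its log2 difference in counts was 0.39 ± 0.065, adjusted p = 0.000267 (edgeR). CDK9 was at 18.9, 19.5 and 19.9 FPKM in MR49F and 14.2, 15.2 and 16.2 FPKM in V16D, with 0.36 ± 0.056, adjusted p = 0.000142 (edgeR). MEPCE was at 34.9, 33.1 and 30.6 FPKM in MR49F and 24.9, 25.5 and 25.1 FPKM in V16D, with 0.45 ± 0.064, adjusted p = 6.42e-05 (edgeR). In FPKM the lines overlapped for none of these 3, nor for BRD2, BRD3, CCNT2 and HEXIM2, but they did for CCNT1 and LARP7. BRD3 at 0.32 ± 0.066 and HEXIM2 at 0.34 ± 0.12 were also higher in MR49F, and CCNT2, at -0.31 ± 0.057, was lower. CCNT1 at -0.13 ± 0.060 and LARP7 at -0.15 ± 0.075 did not pass. The 6 of 9 genes called stood against 63.7% of all genes. In FPKM 7 of 9 passed by limma (62.6% of all genes), with BRD2 added at 0.38 ± 0.077, adjusted p = 0.00493. BRD2 was at 142, 121 and 117 FPKM in MR49F and 95.9, 95.4 and 97.6 FPKM in V16D. Without the first MR49F vehicle replicate 7 of 9 passed in counts, with LARP7 added at -0.24. CCNT1 was called without the third (-0.16), and the HEXIM2 call was lost with DESeq2, without that one (0.30) or without V16D vehicle replicate 1 (0.28) or 2 (0.31). With 1 line of each kind, differences between the lines cannot be told apart from differences between any pair of lines.

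Across all 10 conditions, HEXIM1 levels fell into a high set and a low set. JQ-1 alone (86.9 ± 2.89 FPKM) stood above enzalutamide with JQ-1 (79.2 ± 1.41) without overlap, and the latter overlapped DHT with JQ-1 (77.2 ± 4.59). The other 7 conditions ran from 14.8 ± 0.966 FPKM in MR49F with vehicle in full serum down to 11.4 ± 0.173 in V16D with vehicle, and of neighbours in that order only the topmost pair of these 7 did not overlap. For BRD2 the order was DHT with JQ-1 (301 ± 19.6 FPKM), JQ-1 (256 ± 9.75) and enzalutamide with JQ-1 (251 ± 7.84), of which the last pair overlapped, then DHT (133 ± 7.74), which overlapped MR49F vehicle in full serum (126 ± 13.7). CDK9 ran from 14.2 ± 0.481 FPKM in V16D with enzalutamide to 24.8 ± 0.689 in MR49F with JQ-1, with both V16D conditions below all MR49F conditions. CCNT1 spanned 9.35 ± 0.973 to 10.4 ± 0.570 FPKM, and every neighbouring pair of conditions overlapped. CCNT2 spanned 6.14 ± 0.240 to 8.14 ± 0.148 FPKM. LARP7 spanned 16.9 ± 1.04 to 25.3 ± 1.20 FPKM, with every neighbouring pair overlapping. HEXIM2 ran from 3.27 ± 0.595 to 6.86 ± 1.07 FPKM, also with overlap throughout.

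Full and stripped serum differed also in the vehicle and in the count per FPKM, and cells had 72 h in stripped serum before treatment. These cannot be told apart from the serum, so levels are given side by side without a test. MR49F with vehicle had 14.8 ± 0.966 FPKM of HEXIM1 in full and 13.5 ± 1.00 in stripped serum, 126 ± 13.7 and 86.1 ± 5.69 of BRD2, and 32.8 ± 2.14 and 23.9 ± 1.59 of MEPCE. For HEXIM2 the values were 5.08 ± 0.60 and 6.86 ± 1.07 FPKM.

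Over the 18 stripped-serum samples, HEXIM1 correlated with BRD2 at Pearson's r = 0.949, with CDK9 at 0.787, with BRD3 at -0.812 and with HEXIM2 at -0.700 (log2 scale). These samples form 6 treatment groups in which JQ-1 was present or absent, so the values describe that split and carry no test. Among 2061 expressed and varying genes compared, those most like HEXIM1 included DPYSL3, POLR2A, RABIF and CDKN2D, with r from 0.995 to 0.998. DPYSL3 went from 0.789 FPKM in vehicle to 14.9 FPKM with JQ-1, and POLR2A, the largest subunit of RNA polymerase II, from 24.7 to 60.6 FPKM. RABIF went from 6.13 to 12.97 FPKM, and CDKN2D, an inhibitor of cyclin D kinases, from 9.32 to 28.0 FPKM. BRD2 was 199th in likeness to HEXIM1.

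Other genes of the elongation machinery were taken from lists by role and are counted beside all genes, whose median log2 change with JQ-1 alone was -0.06. Of 12203 genes tested, 3966 rose and 5204 fell with JQ-1 alone, 75.1% in all, so calls for most genes of a list are near the share of all genes. Of 9 super elongation complex genes, 5 rose and 3 fell with JQ-1 alone (median 0.26), led by the elongation factor ELL2 at 0.84, MLLT3 at 0.73 and the scaffold AFF4 at 0.47. With enzalutamide present 3 rose and 3 fell, and with DHT 3 rose and 4 fell, against 75.7% and 78.8% of all genes called. ELL2 changed by 2.67 with DHT alone, and by -0.52 when JQ-1 was added to DHT. Of 6 genes for the pausing factors NELF and DSIF, 2 rose and 3 fell with JQ-1 alone (median -0.054), with NELFCD at -0.73, NELFA at -0.27 and the DSIF subunit SUPT4H1 at 0.26. Of 6 PAF1 complex genes, 2 rose and 1 fell (median 0.058), with CTR9 at 0.89, RTF1 at 0.60 and LEO1 at -0.44. These lists moved both ways.

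Of 9 other transcription kinases and cyclins, 3 rose and 3 fell with JQ-1 alone (median 0.050): the Mediator kinases CDK19 and CDK8 were at -0.77 and -0.42, and CDK13, an elongation kinase, at 0.45. CDK8 was lower with DHT alone, at -1.25, and higher when JQ-1 was added to DHT, at 0.54. All 5 BET partner genes fell with JQ-1 alone (median -0.26), where 5204 of all 12203 genes fell, including GLTSCR1 at -0.36 and the remodelling ATPases SMARCA4 at -0.27 and CHD4 at -0.26, and 4 of the 5 fell when JQ-1 was added to either ligand (medians -0.33 with enzalutamide, where 5398 of 12148 genes fell, and -0.45 with DHT, where 5139 of 11856 fell). Of 7 luminal markers, 0 rose and 5 fell with JQ-1 alone, a share of calls near the 75.1% of all genes.

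Among genes known to respond to BET inhibitors, the histone gene HIST2H2BE rose by 1.59 with JQ-1 alone, 1.89 added to enzalutamide and 2.02 added to DHT. The transcription factor gene MYC was at -0.85, -1.50 and -1.99 in the same order. SERPINI1, a serpin gene, was at -1.84 and -1.03, but at 1.12 on DHT, where DHT alone had lowered it (-3.44). The interaction of JQ-1 with DHT for SERPINI1 was 2.96 and passed the test in limma. HEXIM1 thus kept its direction in all 3 backgrounds, as did HIST2H2BE and MYC, and SERPINI1 did not.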

How the data were processed

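RNA-seq of poly(A) RNA from strand-specific libraries, read as single ends, was analysed for 30 samples. Per the labels and the methods, the authors aligned reads to GRCh37 (hg19) with TopHat 2.0.9. They deposited read counts per gene symbol, made with HTSeq and not normalized, and, for each RefSeq transcript, FPKM estimated by Cufflinks 2.1.1, whose sum per symbol was taken here. How strand was set in the counting is not given in the sources used here.

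Counts were tested with edgeR 4.0.16 in R 4.3.3 (quasi-likelihood test, TMM, filterByExpr at 10 counts and a total of 15). FPKM were tested with limma 3.58.1 (trend) on log2(FPKM + 1). Genes entered when 3 or more samples of the fit reached 1 FPKM, and fold changes on this scale understate those of low genes. Each fit held the groups compared, the interactions 4 groups. P-values were adjusted by Benjamini-Hochberg over all genes tested, and genes at or below 0.05 were called. The few reads counted on genes limit precision in stripped serum. They were 982130 to 1813262 per sample, or 5.13 to 7.66% of the reads with an assignment listed. They leave small changes of low genes undetectable in counts. Which strand these reads come from was not tested. The fits were first tested on simulated data.

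The 9 genes and the other lists were chosen with earlier results of these data known. Named were all 9, of each other list at most 3 genes with the largest change in FPKM with JQ-1 alone among those called, SERPINI1, HIST2H2BE and MYC, and the 5 genes with the highest Pearson r to HEXIM1 over 18 samples, among genes of mean at least 1 FPKM whose condition means had an SD of at least 0.5. Results for some items are not reported here. Replicate numbers did not pair the samples on average over genes, and the main fits were unpaired. Alternatives were other filters, DESeq2 1.42.0 (as size factors and as a test), a pseudocount of 0.1, quantile normalization, all groups in a single fit, the replicate number as a block, and leaving out each sample. Shared exon bases were computed with bedtools 2.31.1 on GENCODE genes mapped to GRCh37, which is not the annotation the authors counted on. Promoter sequences are RefSeq's on GRCh38.p14. Figures were drawn with matplotlib 3.10.9.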

Additional observations from a re-analysis of the deposited data

Results flagged for a closer look

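The interactions of JQ-1 with a ligand that passed the test in stripped serum are listed here, each tested on the difference of the effects itself. The groups hold 3 samples each, so no single sample was tested for standing apart.

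The MEPCE response to JQ-1 differed with DHT present, by -0.63 on the log2(FPKM + 1) scale and by -0.97 in counts. Both units gave the same sign, but MEPCE had only 64 to 141 counts per sample in stripped serum. MEPCE shares 203 bases with ZCWPW1 on the opposite strand, and the part of that gene's reads was not tested. The BRD2 response differed with DHT by -0.39 and with enzalutamide by -0.21 on the log2(FPKM + 1) scale, and BRD2 counts were too low to bear on it. The call with enzalutamide was near the threshold and was lost for 9 of the 12 samples left out in turn. The HEXIM1 response differed with DHT by 0.51 in counts, while FPKM gave -0.052 without a call. HEXIM1 is the gene whose count per FPKM was 5.05 times as high in stripped as in full serum, and the part of its neighbour's reads in this difference was not tested.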

How the results depend on the processing

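The HEXIM1 and BRD2 rises with JQ-1 in FPKM were called under every alternative run, in all 3 backgrounds. Over all single-gene results, 2084 of 2209 alternatives stayed on the same side of the threshold without a called change of sign, 94 of them with a turn of sign where neither value was called, 67 lost the call and 55 gained it. The sign turned with a call on either side under 3, each with limma on log2(FPKM + 1) in place of counts: BRD2 between the lines (0.38), HEXIM1 for JQ-1 by DHT (-0.052) and BRD2 for JQ-1 by enzalutamide (-0.21). The cause was not tested. Among counts of called genes, enzalutamide in V16D (2) gave 1 with DESeq2 or all groups in a single fit, 0 in FPKM, and 1 to 2 with a sample left out. Enzalutamide in MR49F (0) gave 1 without a filter, 2 with all groups and 0 to 1 with a sample left out, and the difference between the lines (0) gave 1 without a filter and 0 to 2. The lines themselves gave 5 to 7 with a sample left out. In stripped-serum counts, JQ-1 alone (3) gave 5 in FPKM and 2 to 4 with a sample left out. JQ-1 with enzalutamide (2) gave 1 with the stricter filter, 5 in FPKM and 1 to 3, and JQ-1 with DHT (4) gave 2 without a filter or with DESeq2 and 2 to 5. DHT (3) gave 5 without a filter or with all groups and 2 to 4, enzalutamide (1) gave 0 with DESeq2, 2 in FPKM and 0 to 1, and the interaction with enzalutamide (0) gave 1 without a filter or in FPKM and 0 to 1. In FPKM with a sample left out, JQ-1 alone and JQ-1 with enzalutamide (5 each) gave 5 to 6, JQ-1 with DHT (5) 4 to 6, DHT (4) 3 to 5 and enzalutamide (2) 1 to 2. The BRD2 interaction with enzalutamide in FPKM (1) gave 0 without a filter, with quantile normalization or with all groups, and 0 to 1 with a sample left out.

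Quantile normalization moved the share of calls that were higher from 43.2 to 53.3% with JQ-1 alone (7 of the 9 genes then called), from 41.3 to 52.9% with enzalutamide present, where the median of all genes shifted by 0.11, and from 39.3 to 51.1% for the interaction with enzalutamide. On average over genes of mean at least 1 FPKM, the replicate numbers did not pair the samples. The mean correlation of deviations at equal numbers was -0.020 in V16D, 0.047 in MR49F and 0.012 in stripped serum, in counts. It was -0.011, -0.080 and 0.0043 in FPKM, where single pairs in stripped serum ranged from -0.34 to 0.16. BRD2 FPKM rose with the replicate number in every stripped-serum group except enzalutamide, and pairing for single genes was not tested. With the replicate number as a block in FPKM, JQ-1 with DHT gave 7 called genes, with CDK9 and LARP7 added, and DHT 6, with HEXIM1 (-0.12) and MEPCE (0.16) added.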
